A study of Mus musculus with 6 samples.

Results

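The activator protein 1 (AP-1) family was followed through 10 genes of the 24940 in the deposited table, chosen by symbol: Fos, Fosb, Fosl1 and Fosl2 of the FOS group, Jun, Junb and Jund of the JUN group, and Batf, Batf3 and Atf3. Each was found once. The cells were mouse bone marrow-derived macrophages (BMMs), which serve as osteoclast precursors and were grown with macrophage colony-stimulating factor (M-CSF). M-CSF at 30 ng/mL was present in all 3 conditions, and the treatment lasted 3 days. The -R cultures had nothing else, the +R cultures also had receptor activator of NF-κB ligand (RANKL), the cytokine that starts osteoclast formation, at 100 ng/mL, and the R+LE cultures had RANKL at that dose together with an Abeliophyllum distichum leaf extract (LE) at 10 μg/mL. There were 2 libraries for each condition and 6 in all. The labels give primary cells of C57BL/6 mice aged 6 to 8 weeks, whereas the methods of the study name male ICR mice. LE is a mixture of plant compounds, and no culture with LE but without RANKL was sequenced, so an action of LE on the cells apart from RANKL cannot be told apart from an action on the RANKL response.

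AP-1 is a dimer of basic leucine zipper proteins. FOS proteins bind DNA only after pairing with a JUN protein, JUN proteins can also pair with each other, and BATF and ATF proteins compete for the same partners. Many of the genes are transcribed within minutes of a stimulus through kinases of the MAPK cascades and fall again within hours. In the osteoclast lineage c-Fos is indispensable: mice without it form macrophages but no osteoclasts, and one of its known targets there is Nfatc1, the gene of the transcription factor that directs osteoclast differentiation. A single harvest on day 3 shows the levels that were held by then and not the early burst.

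Mapped reads numbered between 29390208 and 34846367 per library, and 74.2% to 80.7% of them lay on genes. Values are reads per kilobase of transcript scaled to the mapped reads of the library (RPKM), which are per length and can be compared between genes. The test was limma on log2(RPKM + 0.5) with Benjamini-Hochberg adjustment over the 11595 genes whose mean over all libraries reached 0.5 RPKM. A gene passed at an adjusted p below 0.05 and was called when the difference was also at least 2-fold. The labels do not say that replicates came from separate cultures or animals, so p-values measure only the spread between these libraries, which may be technical. The labels were checked against markers. In -R, +R and R+LE respectively, 8 macrophage markers summed to 6665 to 7260, 2860 to 3611 and 3826 to 4258 RPKM, and 10 osteoclast markers to 43.4 to 45.0, 1951 to 2222 and 346.2 to 402.0 RPKM. Calcr and Oscar were at 0 in both -R libraries and in no other library. All 10 osteoclast markers passed as higher in +R than in -R and as lower in R+LE than in +R. The macrophage sum was mostly Lyz2, with means of 5317, 2132 and 3060 RPKM in -R, +R and R+LE. Of the 8 macrophage markers, 6 passed as lower in +R than in -R, and 1 as higher in R+LE than in +R. Itgam and Spi1 did not pass between +R and -R and had higher means in +R (70.5 and 90.2, 197.1 and 256.4 RPKM in -R and +R). In bulk samples, fewer cells of a type and less RNA per cell cannot be told apart, and the part of this shift in the AP-1 values was not tested.

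At day 3 the AP-1 genes of RANKL-treated cells were not a uniformly higher set. Fosl2 and Junb were higher in +R than in -R, Atf3, Jun, Fosl1, Fosb and Batf were lower, and Fos and Jund did not pass. Of the 9 members that could be tested, 7 passed, beside 45.4% of all genes tested. The 2 higher ones stand beside 23.9% of genes and the 5 lower ones beside 21.5%. In all 6 were called, beside 15.5% of all genes, and the groups did not overlap for 8 of the 9, beside 75.2%. These counts include Fosb, which entered the test only through its high -R level. With a minimum mean of 1 RPKM, which leaves it out, 6 of 8 passed, beside 5035 of 10667 genes. At that setting 5 were called, beside 1619 genes. With LE in addition to RANKL, Fosl2 was lower and Fosl1 and Atf3 were higher than with RANKL alone, each by at least 2-fold, and Jund was lower by less. These are 4 of 9 that passed, beside 12.0% of all genes, with 2 higher beside 5.19% and 2 lower beside 6.86%, and 3 called, beside 3.23%. The groups did not overlap for 7 of the 9, beside 49.0%. These 7 include Fosb, at 10 reads or fewer in each of these libraries. They also include Batf, whose higher R+LE value was 3.946 RPKM and whose lower +R value was 3.949. With a minimum mean of 1 RPKM, at which Fosb is not tested, 4 of 8 passed and 3 were called. Over all genes 1417 passed and 334 were called there, of 10667. The 2 comparisons share the +R libraries, so an error in those libraries moves both in opposite directions.

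Promoter sequence is shown for 4 members. Fos and Jun are the founding pair and classical examples of control by AP-1 and CREB type sites in their own promoters. Atf3 and Fosl2 are the members with the lowest and the highest log2 difference between +R and -R. Each line gives the 100 bases before the RefSeq transcription start in GRCm38.p6, on the strand of the gene, with the motif found in capitals. They are chr12:85473790-85473889 on the plus strand for Fos, chr4:95052223-95052322 on the minus strand for Jun, chr1:191183334-191183433 on the minus strand for Atf3 and chr5:32136372-32136471 on the plus strand for Fosl2.
Fos: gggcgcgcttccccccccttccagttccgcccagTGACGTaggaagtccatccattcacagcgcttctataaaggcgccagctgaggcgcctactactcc
Jun: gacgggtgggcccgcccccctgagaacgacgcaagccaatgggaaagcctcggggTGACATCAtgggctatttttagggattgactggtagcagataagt
Atf3: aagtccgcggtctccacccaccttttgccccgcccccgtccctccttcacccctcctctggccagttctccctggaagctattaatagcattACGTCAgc
Fosl2: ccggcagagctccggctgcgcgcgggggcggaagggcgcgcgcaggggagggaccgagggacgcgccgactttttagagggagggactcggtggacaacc

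The capitals in Fos are TGACGT, the core of the cyclic AMP response element, from -66 to -61. In Jun they are TGACATCA, an 8-base AP-1-like element, from -45 to -38, and in Atf3 they are ACGTCA, which is TGACGT read on the other strand, from -8 to -3. Fosl2 held none of the motifs searched in these bases. Motifs were searched on both strands of windows from 250 bases before to 50 after the start, which were at hand for 9 of the 10 members. The letters were chosen after the windows had been read. The 7-base AP-1 site TGAGTCA was in 0 of the 9 windows and in 5.2% of all 32851 windows, TGACGT was in 3 (Fos, Batf and Atf3) and in 7.51%, and TGACATCA was in 1 (Jun) and in 3.62%. The full palindrome TGACGTCA, which contains TGACGT, was in 0 of the members' windows and in 1.79% of all. A match describes these letters in these windows and is not evidence of binding.

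Fos, which encodes c-Fos, the member that osteoclast formation requires, lies at chr12:85473890-85477274 in mm10 and has 4 exons. It was at 66.0 and 71.3 RPKM in -R, at 82.0 and 74.3 in +R, and at 87.5 and 72.2 in R+LE. The -R libraries were the lowest, and the R+LE libraries lay on both sides of those of +R. The difference was 0.18 on the log2 scale between +R and -R (SE 0.15, 95% interval -0.14 to 0.51, limma adjusted p = 0.348) and 0.03 between R+LE and +R (SE 0.15, interval -0.30 to 0.35, adjusted p = 0.953). The intervals, which are not adjusted for the number of genes, hold no 2-fold difference in either direction, and differences inside them were not detectable with these libraries. The sign of the second value depended on single libraries: it was -0.04 without +R replicate 2 and -0.11 without R+LE replicate 1.

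Fosl2, which encodes Fra-2, a FOS protein without the transactivation domain of c-Fos, lies at chr5:32136472-32157839. It was at 14.0 and 14.9 RPKM in -R, at 61.6 and 60.5 in +R, and at 20.1 and 19.5 in R+LE. Both +R libraries were far above the other 4, no groups overlapped, and Fosl2 in R+LE lay nearer to -R than to +R. The means were 14.5 ± 0.635, 61.1 ± 0.764 and 19.8 ± 0.465 RPKM (SD, n = 2 each). The ratio of means was 4.21 between +R and -R (log2 difference 2.04, SE 0.13, limma adjusted p = 8.82e-09) and 0.324 between R+LE and +R (log2 difference -1.60, SE 0.13, adjusted p = 1.65e-06). R+LE was still above -R by 0.44 (SE 0.13, adjusted p = 0.0198), and this last difference no longer passed without -R replicate 1 (adjusted p = 0.146) or without -R replicate 2 (adjusted p = 0.076).

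Fosl1, which encodes Fra-1, the close relative of Fra-2 and a known target of c-Fos in osteoclast precursors, lies at chr19:5447698-5455938 and took the opposite course. It was at 5.69 and 5.05 RPKM in -R, at 1.65 and 1.48 in +R, and at 5.16 in both R+LE libraries. The R+LE values fell within the range of -R, and both +R libraries were below all others. The log2 difference was -1.51 between +R and -R (SE 0.15, limma adjusted p = 7.56e-07), 1.46 between R+LE and +R (SE 0.15, adjusted p = 9.65e-06) and -0.05 between R+LE and -R (SE 0.15, 95% interval -0.36 to 0.27, adjusted p = 0.832). The ratio of Fosl2 to Fosl1 levels in -R, +R and R+LE was therefore 2.71, 39.2 and 3.83.

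Fosl1 shares 1163 exon bases of its counted transcript of 1699 bases with Ccdc85b, which is read from the opposite strand at chr19:5453163-5457563. The counting ignored strand, so reads from the shared bases could not be assigned to one of the genes. Ccdc85b was at 5.67 and 4.79 RPKM in -R, at 3.21 and 3.91 in +R, and at 5.77 and 5.21 in R+LE. They moved in the same directions as Fosl1 and by less, with log2 differences of -0.50 between +R and -R (limma adjusted p = 0.0147) and 0.57 between R+LE and +R (adjusted p = 0.024). Which of the genes the shared reads came from was not tested. The Fosl1 levels, the ratio of Fosl2 to Fosl1 and the place of Fosl1 among the members called hold only as far as those reads are its own.

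Fosb, which encodes a FOS protein otherwise known from neurons and bone-forming cells, lies at chr7:19302696-19310045 and was a -R transcript. It was at 1.44 and 1.42 RPKM in -R, from 154 and 180 reads, at 0.018 in each +R library, from 2 reads each, and at 0.087 and 0.054 in R+LE, from 10 and 6 reads. The groups did not overlap, but the +R values lay at the limit of detection. Summed reads per mapped read were 79.8 times higher in -R than in +R (exact 95% interval 30.9 to 294.7). They were 20.2 times higher in -R than in R+LE (12.2 to 35.7). These intervals cover counting error only and take each read as independent. Ends were sequenced in pairs and every Fosb count was even. Where both mates of a pair were counted, the intervals are too narrow. The mean over 6 libraries was 0.507 RPKM, so Fosb entered the test only through its -R level. The limma difference between +R and -R was -1.90 (SE 0.24, adjusted p = 1.03e-05), and its size depended on the pseudocount, from -3.70 with 0.1 to -1.26 with 1 RPKM. Between R+LE and +R it did not pass (0.14, adjusted p = 0.816). At these levels the pseudocount holds the fitted difference down. Summed reads were 16 in R+LE and 4 in +R, a ratio of +R to R+LE of 0.253 per mapped read. The exact 95% interval of that ratio was 0.0614 to 0.783, for counting error only. It too is too narrow where both mates were counted, so no difference is read from it. With voom on the recovered reads the log2 difference was 1.77 (adjusted p = 0.138).

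Junb, whose product is the JUN partner often found with Fra-2 and is itself needed for osteoclast differentiation, lies at chr8:84976909-84978748 in a single exon. It was at 53.1 and 46.9 RPKM in -R, at 124.5 and 121.6 in +R, and at 92.5 and 90.2 in R+LE. The groups did not overlap, and R+LE stood between the other groups. Between +R and -R the log2 difference was 1.29 (SE 0.15, limma adjusted p = 3.36e-06), and between R+LE and -R it was 0.87 (SE 0.15, adjusted p = 0.000265). Between R+LE and +R it was -0.43 (SE 0.15, 95% interval -0.74 to -0.12), which did not pass over all genes (adjusted p = 0.0733) and did with voom on the recovered reads (adjusted p = 0.0313).

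Jun, which encodes c-Jun, the classical partner of c-Fos, lies at chr4:95049036-95052222 and is also a gene of a single exon. Jun was at 48.7 and 52.8 RPKM in -R, at 16.0 and 14.4 in +R, and at 15.0 and 13.7 in R+LE. Both RANKL-treated groups were below -R and overlapped each other. The log2 difference was -1.71 between +R and -R (SE 0.14, limma adjusted p = 9.06e-08) and -0.08 between R+LE and +R (SE 0.14, 95% interval -0.37 to 0.22, adjusted p = 0.818). Jun was thus lower with RANKL whether LE was there or not, and the interval bounds any difference between R+LE and +R below 2-fold. The ratio of Junb to Jun levels in -R, +R and R+LE was 0.989, 8.10 and 6.37.

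Jund, whose product is the JUN protein that most cells hold constantly and that restrains growth, lies at chr8:70697739-70700616. It was at 39.4 and 34.4 RPKM in -R, at 34.6 and 33.0 in +R, and at 26.5 and 21.4 in R+LE. The -R and +R groups overlapped, and both R+LE libraries were the lowest of the 6. The difference was -0.12 between +R and -R (SE 0.15, limma adjusted p = 0.537) and -0.50 between R+LE and +R (SE 0.15, adjusted p = 0.0414). The second one was lost under 8 of 16 alternatives, with adjusted p up to 0.199, among them the fits without +R replicate 1, without +R replicate 2 (adjusted p = 0.107), without R+LE replicate 2 (adjusted p = 0.181) and without either -R library. R+LE was below -R by 0.62 (log2 difference -0.62, SE 0.15, adjusted p = 0.00471), which did not pass without -R replicate 1 (adjusted p = 0.088). Jun shares 232 exon bases with the opposite-strand gene Junos and Jund 877 with Gm11175, and neither partner has a value in the table.

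**Figure D1:**
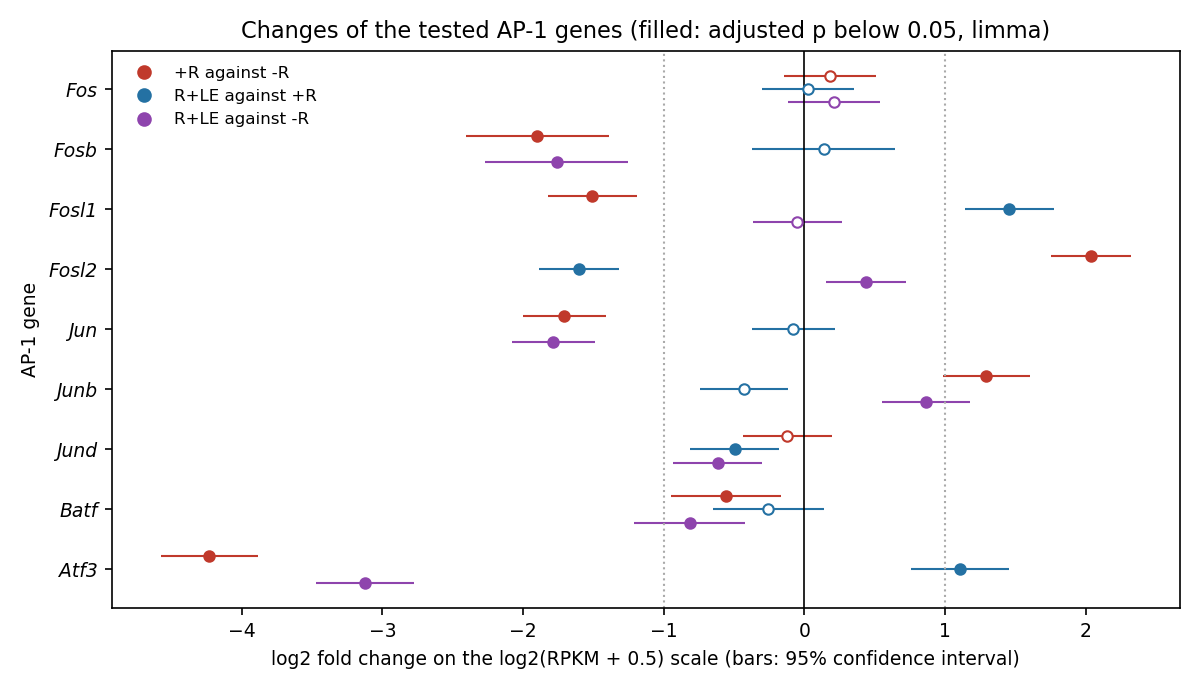
Log2 differences of the 9 tested AP-1 genes in the 3 comparisons, with 95% intervals of the limma fit, filled where the adjusted p was below 0.05, and with dotted lines at a 2-fold difference. Atf3 has the lowest value, -4.23 between +R and -R, Fosl2 and Fosl1 lie on opposite sides of 0 in both RANKL and LE comparisons, and the Fos intervals all include 0.

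Atf3, which encodes a stress-induced factor that represses many inflammatory genes as a homodimer, lies on the minus strand and its counted transcript covers chr1:191170297-191183333. It was at 47.7 and 52.2 RPKM in -R, at 2.56 and 1.85 in +R, and at 6.00 and 4.65 in R+LE. The groups did not overlap, and R+LE was above +R but far below -R. The mean was 22.6 times higher in -R than in +R (log2 difference -4.23, SE 0.16, limma adjusted p = 2.53e-11) and 9.38 times higher in -R than in R+LE (log2 difference -3.12, SE 0.16, adjusted p = 1.34e-09). R+LE was 2.41 times +R (log2 difference 1.11, SE 0.16, adjusted p = 0.000312). That difference passed under every alternative run, the highest adjusted p being 0.0446, although it was under 2-fold on the log scale with a pseudocount of 1, without +R replicate 2 and without R+LE replicate 1.

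Batf, whose product pairs with JUN proteins and is best known from lymphocytes, lies at chr12:85686720-85709087. It was at 7.19 and 5.17 RPKM in -R, at 3.95 and 4.02 in +R, and at 3.95 and 2.67 in R+LE. The -R libraries were the highest, and the larger R+LE value lay just below both +R values. The log2 difference was -0.56 between +R and -R (SE 0.18, limma adjusted p = 0.022), but -0.34 without -R replicate 1 (adjusted p = 0.267), and it did not pass with no filter on low genes (adjusted p = 0.142). Between R+LE and -R it was -0.82 (SE 0.18, adjusted p = 0.00295), and -0.60 without -R replicate 1 (adjusted p = 0.0818). Between R+LE and +R it was -0.26 (adjusted p = 0.468).

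Batf3, which is known for its role in a class of dendritic cells, lies at chr1:191098414-191108943, on the chromosome of Atf3 but on the plus strand. It had too few reads for the test. It was at 0.481 and 0.528 RPKM in -R, from 10 and 13 reads, at 0 and 0.184 in +R, from 0 and 4 reads, and at 0 and 0.093 in R+LE, from 0 and 2 reads. Summed reads per mapped read were 5.50 times higher in -R than in +R (exact 95% interval 1.88 to 21.9) and 11.1 times higher in -R than in R+LE (2.74 to 97.2). These intervals compare reads of these libraries and not the conditions. They take each read as independent and are too narrow where both mates of a pair were counted.

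Between R+LE and -R, where the libraries differ by RANKL and LE together, 7 members passed, beside 34.3% of all genes tested, and the groups did not overlap for 8 of the 9, beside 65.5%. Fosl2 and Junb were higher, beside 15.3% of genes, and Fosb, Jun, Jund, Batf and Atf3 were lower, beside 19.0%. Of these, 3 were called, Fosb, Jun and Atf3, beside 10.3% of all genes. With a minimum mean of 1 RPKM, at which Fosb is not tested, 6 of 8 passed and 2 were called, beside 3850 and 1088 of 10667 genes. The smallest differences that passed, those of Fosl2, Jund and Batf, were 0.44, -0.62 and -0.82. Without -R replicate 1, which leaves 1 library in -R, they were 0.39, -0.52 and -0.60.

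The 10 genes summed to 284.2 ± 0.65, 319.1 ± 10.9 and 243.2 ± 19.2 RPKM (SD, n = 2 each) in -R, +R and R+LE, while the makeup of the sum differed more. In -R, Fos held 24.2% of the sum and Jun, Junb and Atf3 17.9%, 17.6% and 17.6%, and the ranges of these last 3 overlapped. In +R, Junb held 38.6%, Fos 24.5% and Fosl2 19.1%, whereas Jun held 4.77% and Atf3 0.689%. In R+LE, Junb held 37.7%, Fos 32.8% and Fosl2 8.16%. In the same order, the FOS group summed to 90.0 ± 3.91, 140.8 ± 6.35 and 104.9 ± 11.3 RPKM, and the JUN group to 137.6 ± 5.06, 172.1 ± 4.24 and 129.6 ± 6.10 RPKM. The ratio of Fos to Fosl2 was 4.74, 1.28 and 4.03.

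The order of levels in -R was Fos, then Jun, Junb and Atf3 without separation, then Jund, Fosl2, Batf and Fosl1 without separation, Fosb and Batf3. In +R the order was Junb, Fos, Fosl2, Jund, Jun, Batf, Atf3, Fosl1, and last Batf3 and Fosb, whose ranges overlapped. In R+LE it was Junb, Fos, Jund, Fosl2, Jun, then Atf3 and Fosl1 without separation, Batf, and last Fosb and Batf3 without separation. Neighbours not named as unseparated did not overlap over the 2 libraries. These are levels of mRNA, and the amount of each dimer was not measured.

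**Figure D2:**
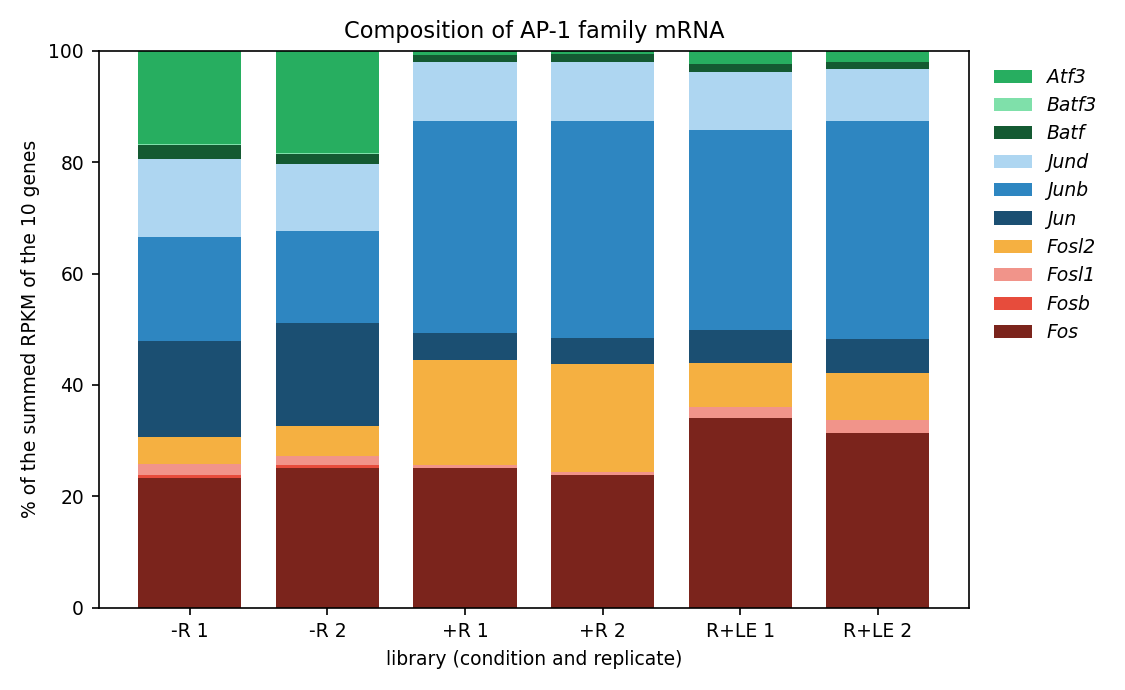
Stacked bars of the percent that each of the 10 AP-1 genes takes of their summed RPKM, in each of the 6 libraries. Junb and Fosl2 take a larger part of the bar in +R than in -R, Jun and Atf3 a smaller one, and the Fosl2 part is smaller in R+LE than in +R.

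Fos and Batf stand on the same strand of chromosome 12 with Jdp2 between them, which encodes a bZIP protein that dimerizes with JUN proteins, is known as a repressor of AP-1 and is needed for osteoclast formation. The gap from Fos to Jdp2 is 122.1 kb and that from Jdp2 to Batf 46.8 kb, and no other gene of the table lies within them. Jdp2, at chr12:85599416-85639878, was at 6.05 and 4.56 RPKM in -R, at 188.0 and 195.9 in +R, and at 58.0 and 48.7 in R+LE. Its groups did not overlap, and its level was above that of any AP-1 member in +R. The log2 difference was 5.06 between +R and -R (SE 0.16, limma adjusted p = 3.13e-12) and -1.84 between R+LE and +R (SE 0.16, adjusted p = 2.21e-06). The ratio of Jdp2 to Batf in -R, +R and R+LE was 0.861, 48.2 and 16.5, so the 3 neighbours did not move together. On chromosome 1, Batf3 and Atf3 are 61.4 kb apart with 1 gene of the table between them.

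**Figure D3:**
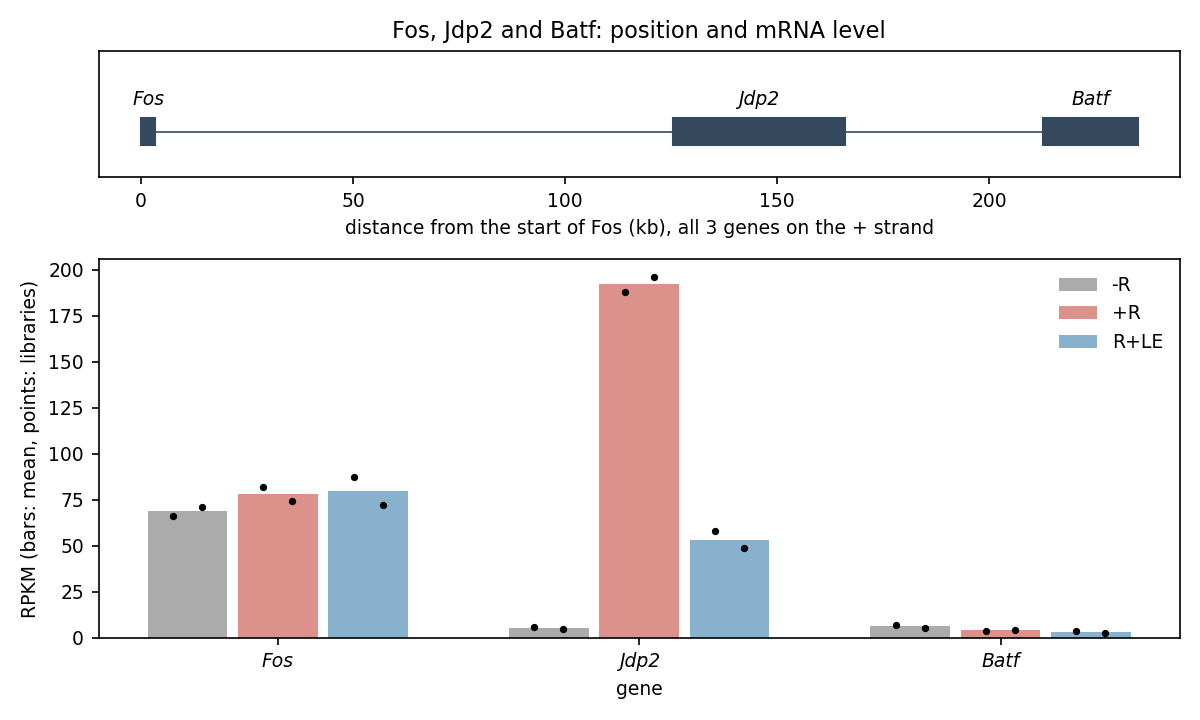
The Fos, Jdp2 and Batf genes along chromosome 12, as distance in kb from the Fos start, and below them their RPKM, with bars at group means and points for libraries. Jdp2 is at 188.0 and 195.9 RPKM in +R against 6.05 and 4.56 in -R, while its neighbours differ by far less.

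Among 14 other bZIP genes that can pair with AP-1 proteins or share their sites, 3 were higher and 7 lower in +R than in -R, beside 23.9% and 21.5% of all genes, with a median log2 difference of -0.34 beside 0.05 over all genes. Maf, a factor of mature macrophages, was among the lower ones. It was at 47.0 and 52.9 RPKM in -R, at 9.551 and 10.4 in +R, and at 9.53 and 12.4 in R+LE, with a log2 difference of -2.27 between +R and -R (limma adjusted p = 1.1e-08), and between R+LE and +R its difference of 0.12 did not pass (adjusted p = 0.725). Between R+LE and +R, 1 of the 14 was higher and 4 were lower, beside 5.19% and 6.86% of all genes, with a median of -0.04 beside -0.05, and the lower ones included Jdp2 and Maff, a small Maf protein (log2 difference -1.10, limma adjusted p = 0.00169).

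Of 30 genes of the kinases and factors that act on AP-1, 28 could be tested. Between +R and -R 5 were higher and 11 lower, beside 23.9% and 21.5% of all genes, with a median log2 difference of -0.16 beside 0.05. In R+LE against +R 2 were higher and 1 lower, a share near the 12.0% of all genes that passed, and the median was 0.00 beside -0.05. Mapk11 and Rps6ka5, which encode a p38 kinase and its downstream kinase MSK1, were higher in +R than in -R, by log2 differences of 1.15 (limma adjusted p = 6.25e-05) and 1.11 (adjusted p = 2.03e-05). Mef2c and Mef2a, factors that act on the Jun promoter, were lower, by -2.22 (adjusted p = 7.59e-09) and -1.70 (adjusted p = 3.19e-07). These values are transcript levels, and phosphorylation, through which the kinases act, was not measured here.

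Of 24 genes known to be controlled through AP-1, 21 were tested. Between +R and -R 10 were higher and 9 lower, beside 23.9% and 21.5% of all genes, with a median log2 difference of 0.34 beside 0.05. In R+LE against +R 6 were higher and 10 lower, beside 5.19% and 6.86%, and the median was -0.39 beside -0.05. The list holds osteoclast genes, 8 of which are also among the osteoclast markers, as well as inflammatory genes, and the members went in both directions. All 8 were among the 10 higher in +R and among the 10 lower in R+LE. Those counts and both medians therefore depend on the markers already used to check the labels. Mmp9, a gelatinase of osteoclasts, had means of 3.56, 770.1 and 113.8 RPKM in -R, +R and R+LE (log2 differences 7.57, limma adjusted p = 2.71e-14, and -2.75, adjusted p = 1.36e-08). Ctsk, the collagen-degrading cathepsin K, had means of 0.199, 73.9 and 16.2 RPKM, with differences of 6.72 (adjusted p = 3.49e-13) and -2.15 (adjusted p = 6.41e-07). Nfatc1 had means of 5.61, 51.7 and 20.6 RPKM in the same order, with log2 differences of 3.10 (adjusted p = 7.94e-11) and -1.31 (adjusted p = 9.43e-06).

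Other genes of that list went the other way. Ccl2, a chemokine that attracts monocytes, had means of 316.0, 15.7 and 23.8 RPKM in -R, +R and R+LE, with a log2 difference of -4.28 between +R and -R (limma adjusted p = 1.8e-11). Mmp12, the elastase of macrophages, was lower in +R (-2.32, adjusted p = 8.39e-08) and higher in R+LE than in +R (1.57, adjusted p = 4.35e-05). Hmox1, which encodes the heme-degrading enzyme heme oxygenase 1, was lower in +R as well (-4.20, adjusted p = 8.11e-11) and higher in R+LE than in +R (1.18, adjusted p = 0.000406). Mmp14, a membrane collagenase, followed the course of Mmp9, with differences of 4.82 (adjusted p = 2.87e-12) and -2.49 (adjusted p = 8.41e-08).

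**Figure D4:**
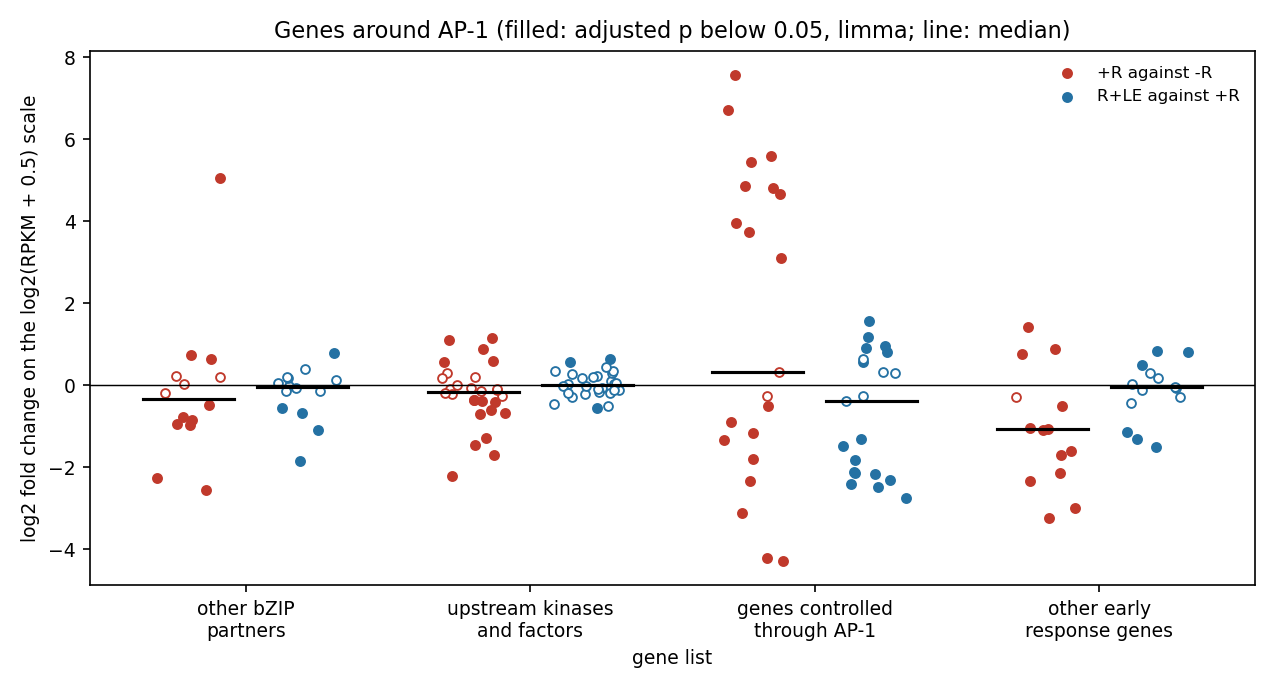
Log2 differences between +R and -R and between R+LE and +R for each tested gene of the 4 lists around the AP-1 family, with 1 point per gene, filled where the adjusted p was below 0.05, and a line at the list median. The genes controlled through AP-1 spread from -4.28 to 7.57 between +R and -R, and the kinases and upstream factors lie close to 0 between R+LE and +R.

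Other early response genes, which are transcribed through the same signals as Fos and Jun, were mostly lower after RANKL. Of 14, 3 were higher and 10 lower in +R than in -R, beside 23.9% and 21.5% of all genes, with a median log2 difference of -1.08 beside 0.05 over all genes. Klf2, a factor that holds monocytes quiescent, was lower by -3.24 (limma adjusted p = 1.52e-10), and Dusp1, the phosphatase that ends MAPK signals, by -3.00 (adjusted p = 1.88e-10). Egr3 was higher (1.41, adjusted p = 0.000207) but at low levels, with means of 0.1535 RPKM in -R and 1.25 in +R. It is 1 of the 3 higher genes and entered the test only through its +R level.

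Between R+LE and +R, 3 of the 14 early response genes were higher and 3 lower, beside 5.19% and 6.86% of all genes, and the median was -0.05, as over all genes. Klf2 and Dusp1 were among the 3 higher ones, by 0.82 (limma adjusted p = 0.0016) and 0.51 (adjusted p = 0.0263), each less than 2-fold. Both stayed below -R in R+LE, with log2 differences of -2.42 and -2.49. The lower ones were all EGR zinc finger factors: Egr1 (log2 difference -1.14, limma adjusted p = 0.000543), Egr2 (-1.50, adjusted p = 1.46e-05) and Egr3 (-1.32, adjusted p = 0.00187). Egr1 was at 2.49, 1.93 and 0.604 RPKM in -R, +R and R+LE on average, and Egr2 at 2.39, 4.39 and 1.23. Egr3 was at 0.1535, 1.254 and 0.1965 in the same order. Since Egr3 entered the test only through its +R level, its place among the 3 lower genes rests on that level. Fos, which shares its serum response elements with the EGR genes, did not pass in this comparison.

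Markers of other blood and stromal cells were also summed. In -R, +R and R+LE respectively, 6 neutrophil markers summed to 15.5 to 17.0, 0.716 to 0.816 and 0.592 to 2.46 RPKM, and 4 B cell markers to 1.55 to 1.94, 0.099 to 0.105 and 0.048 to 0.124 RPKM. Over all libraries, 5 T cell markers summed to at most 0.332 RPKM. In -R, +R and R+LE, 4 erythroid markers summed to 0.478 to 0.583, 0.068 to 0.203 and 0.033 to 0.256 RPKM. The 6 stromal and osteoblast markers summed to 15.3 to 16.4, 10.4 to 14.2 and 8.87 to 10.2 RPKM in the same order. Of the 4 stromal markers tested, 1 passed as lower in +R than in -R and 2 in R+LE than in -R. The neutrophil, B cell, erythroid and stromal sums were thus higher in -R, as were Atf3, Jun, Fosb, Batf and Batf3. Their part in those differences was not tested.

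The genes most like Fos and Atf3 were sought among the 7363 genes whose mean reached 5 RPKM, by the root mean square difference of the log2 profile over the 6 libraries after each profile was centred. For Fos, whose profile is almost flat, they were Apmap (0.011), Usp15 (0.014) and Riox2 (0.026). For Atf3 they were Hmox1 (0.064), S1pr1 (0.146) and Id1 (0.151). Hmox1 was at 549.1 and 542.4 RPKM in -R, at 34.0 and 25.1 in +R, and at 76.5 and 58.4 in R+LE, so its libraries fell in the same order as those of Atf3 except within -R. The likeness rests on 6 libraries of 3 groups and is a description without a test.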

How the data were processed

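The authors sequenced paired ends of RNA from the 6 cultures, and the submitters' notes name HISAT2, HOMER and DESeq2 and the mm10 build, whereas the methods of the study name TopHat; versions are not given in the sources used here. Reads were counted with HOMER on the exons of 1 transcript per gene without regard to strand, and the deposited values are RPKM under column titles that say FPKM. Deposited transcript lengths (another unit, in bases) were used with RPKM to recover whole reads, and 100.0% of the values checked were whole within 0.1 read, which gave the depth. Replicates differed beyond counting noise, so each was kept. Rn45s, the ribosomal precursor, held 4.97% to 6.83% of gene reads in -R, 10.9% to 11.1% in +R and 11.2% to 13.5% in R+LE, and these reads are part of the totals behind RPKM. Date-like symbols (26) were restored from transcript accessions.

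Groups came from the labels. limma 3.58.1 in R 4.3.3 fitted log2(RPKM + 0.5) of the 3 groups together, with a variance trend and Benjamini-Hochberg adjustment, for genes whose mean reached 0.5 RPKM. No exact permutation test (two-sided) goes below p = 0.333 at this size, so the calls rest on spread shared across genes. A fold change on this scale understates that of low genes. Intervals of reads are exact for independent reads and cover counting error only. Both mates of a sequenced pair may have been counted, which makes these intervals too narrow. The members, lists and tests were chosen with earlier results of these data known. The genes named are all members, the 2 largest rises and falls called in each list between +R and -R and between R+LE and +R, with Jdp2, Nfatc1 and Egr1 besides, and those most like Fos and the member that moved most. Promoter windows are from RefSeq (GRCm38.p6). Gene starts and ends are those deposited with the values, and exons are from the GENCODE annotation of the same build. A gene that this rule names is not reported here. Simulated data were used to check the fit. As alternatives, the pseudocount was set to 0.1 or 1, the filter was dropped or raised to 1 RPKM, the variance trend was dropped, only the 4 libraries compared were fitted, values were centred on the median or quantile normalized, the replicate number entered as a block, voom was run on recovered reads scaled by the trimmed mean of M values (TMM), and each library was left out in turn. Same-numbered libraries deviated together with correlations of -0.046, 0.107 and 0.249 between pairs of groups.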

Additional observations from a re-analysis of the deposited data

How the results depend on the processing

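Of the values computed for the members under the alternatives, 407 kept their direction and their side of the threshold, 15 no longer passed, 3 newly passed and 4 changed sign, all 4 among differences that did not pass. The Fos difference between R+LE and +R ranged from -0.11 to 0.16 when 1 library was left out, and that of Fosl1 between R+LE and -R from -0.128 to 0.029. The latter was 0.0048 with centring on the median. The number of members that passed between R+LE and -R was 4 to 7 when 1 library was left out, with 4 reached without -R replicate 1. Fos passed between R+LE and -R with quantile normalization (0.31, adjusted p = 0.0126). With the replicate number as a block in limma, 1801, 389 and 1200 genes were called against 1797, 375 and 1192 without it, and Junb passed between R+LE and +R (adjusted p = 0.0401). Whether same-numbered libraries are paired is not stated in the labels, and the block changed no other member's side of the threshold. With the minimum mean raised to 1 RPKM, Fosb was not tested. The cause of these shifts was not tested. Fosb and Batf3 in the RANKL-treated groups were limited by depth, with 0 to 10 reads a library. Groups of 2 libraries allow no check for a library far from the rest.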
